A study of Mus musculus with 6 samples.

Results

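The genes described here encode the Wnt ligands, the proteins that help to secrete them, their receptors and extracellular antagonists, the R-spondin axis, and the core transducers that carry the signal to the nucleus. They were taken from the expression table by symbol, as every gene named Wnt, Fzd, Sfrp or Dkk with a number plus a list of named components of the pathway, and gave 57 of the 16880 genes listed. RNA was sequenced from 6 libraries of mouse cells, 3 stimulated with IL-1β at 10 ng/mL (IL-1β group) and 3 stimulated with the same 10 ng/mL plus the fascin inhibitor NP-G2-044 at 10 μM (IL-1β plus NP-G2-044 group). Every library therefore carries IL-1β, no unstimulated or inhibitor-only library was analysed here, and the comparison asks what the inhibitor changed in stimulated cells. The labels name the ATDC5 mouse chondrogenic line, whereas the methods of the study speak of mouse chondrocytes. The titles name NP-G2-044 and the treatment labels of the same libraries name NP-G2-047, and the name of the titles and of the treatment protocol is used here. Nothing in the labels says whether the libraries came from separate cultures, so p-values measure the spread between these samples only.

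Wnt proteins are lipid-modified secreted ligands. The acyltransferase porcupine attaches the lipid and the carrier Wntless takes the ligand to the cell surface, where it binds a Frizzled receptor together with the co-receptor Lrp5 or Lrp6. In the absence of ligand, β-catenin is phosphorylated by a destruction complex of Axin, Apc, casein kinase 1 and GSK3 and is degraded. Receptor engagement recruits Dishevelled, stops this destruction and lets β-catenin enter the nucleus, where it binds the TCF/LEF factors. Other receptors, among them Ror1, Ror2 and Ryk, carry signals that do not need β-catenin. In cartilage the pathway is known for its part in chondrocyte maturation and in the loss of the chondrocyte phenotype.

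Library totals ran from 16615824 to 16878164 reads with IL-1β and from 17529844 to 17735860 with IL-1β plus NP-G2-044. Squared differences between libraries of different groups were on average 122 to 124 times the sampling variance of the counts, against 1.16 to 1.98 times within groups. Fscn1, which encodes the target of the inhibitor, had 616.2 ± 9.46 TPM with IL-1β and 252.4 ± 2.47 with the inhibitor added. Here and below ± is the SD over 3 libraries, and TPM, the authors' transcript abundance scaled per library, is corrected for gene length, so that levels can be set side by side between genes. The chondrocyte markers were sparse, with Col2a1 at 32 reads in the 3 IL-1β libraries and 6 in the 3 inhibitor libraries, and only Sox9 and Col11a2 of 6 markers listed reached 1 TPM. Acan and Col9a1 were not among the genes listed. Summed TPM ran from 11.48 to 12.24 and from 14.86 to 15.05 in the 2 groups for chondrocyte markers, from 21.36 to 23.25 and from 12 to 12.66 for fibroblast markers, from 23.33 to 25.81 and from 12.36 to 13.57 for osteoblast markers, and from 2.97 to 5.14 and from 0.43 to 0.81 for adipocyte markers. The chondrocyte sum rose through Sox9 (6.44 to 11.36 TPM), while Col2a1 (log2 fold change -2.41) and Col11a2 (-0.56) fell. Among fibroblast markers Col1a1, Col3a1 and Dcn fell, whereas Pdgfra rose (1.91). The macrophage list ran from 10.83 to 14.1 and from 124.0 to 134.8, carried mostly by Cd68, with Ptprc at 0. Muscle, endothelial and epithelial lists stayed at or under 1.25 TPM, with Des and Epcam at 0. These marker levels moved with the groups, and their part in the results below was not tested. In such bulk samples fewer cells of a type and less RNA per cell cannot be told apart.

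A few of the ligand genes carry the contrast described below, and the sequence around their start sites is shown for reference, 5′ to 3′ on the coding strand. Wnt10b held most of the ligand transcripts and fell, Wnt9a was the ligand that rose, and Wnt5b fell and is the ligand whose promoter holds the TCF/LEF core motif searched for, printed in capitals. The sequences are from RefSeq on GRCm38.p6, the assembly also called mm10, and run from upstream of the start site into the first exon at chr15:98778101-98778400 (minus strand), chr11:59306680-59306979 (plus strand) and chr6:119449337-119449636 (minus strand). The last is 1 of 3 promoters given for Wnt5b.
Wnt10b: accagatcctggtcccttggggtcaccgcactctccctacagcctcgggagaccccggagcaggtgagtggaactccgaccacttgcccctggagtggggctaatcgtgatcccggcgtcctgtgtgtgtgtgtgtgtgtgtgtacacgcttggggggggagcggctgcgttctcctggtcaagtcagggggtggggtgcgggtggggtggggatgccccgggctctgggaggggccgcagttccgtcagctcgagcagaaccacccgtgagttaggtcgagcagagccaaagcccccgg
Wnt9a: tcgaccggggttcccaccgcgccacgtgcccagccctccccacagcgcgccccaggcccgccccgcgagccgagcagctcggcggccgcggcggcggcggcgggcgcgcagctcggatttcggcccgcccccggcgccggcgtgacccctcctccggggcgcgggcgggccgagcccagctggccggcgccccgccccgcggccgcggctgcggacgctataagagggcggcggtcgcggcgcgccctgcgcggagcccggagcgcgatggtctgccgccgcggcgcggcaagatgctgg
Wnt5b: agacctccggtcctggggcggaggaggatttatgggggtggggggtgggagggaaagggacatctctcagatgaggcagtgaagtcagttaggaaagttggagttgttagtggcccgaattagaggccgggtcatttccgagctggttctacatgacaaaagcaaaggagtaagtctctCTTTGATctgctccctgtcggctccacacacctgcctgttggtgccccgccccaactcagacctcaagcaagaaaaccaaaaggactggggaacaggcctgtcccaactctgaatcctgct
The motif, CTTTGAT or CTTTGAA on either strand, begins at base 180 of this Wnt5b promoter, 71 bases before the start site (position -71). Promoters were found for 36 of the 57 genes, and 3 of their 45 promoters (6.67%) held the motif, those of Wnt5b, Gsk3a and Dkk1, against 2842 of 32851 promoters (8.65%) in the whole table. A match is a description of the letters and not a site.

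Of the 57 genes, 43 had enough reads to be tested and 14 did not. With NP-G2-044 added, 32 of the 43 (74.4%) passed an adjusted p of 0.05 in edgeR's quasi-likelihood test, 13 higher (30.2%) and 19 lower (44.2%), where 40.2% of all 11983 genes tested were higher and 39.8% lower. Past both cutoffs, which add to the adjusted p a log2 fold change beyond 1 in either direction, 3 of 43 rose (6.98%, against 6.48% of all genes) and 11 of 43 fell (25.6%, against 10.1%). Dkk3, Sfrp1 and Ror1 among the falls and Rnf43 among the rises had enough reads only in the group where they were high. Their being tested thus depended on the contrast itself, and these shares are a description only. The groups of libraries did not overlap for 36 of the 43 (83.7%), against 80.8% of all genes, so that separation by itself was close to the background. The median log2 fold change was -0.04 over the genes tested and 0.00 over all genes, and the median size of the change was 0.42 against 0.39. The falls past both cutoffs were spread over ligands, receptors, antagonists, Lgr4 and Tcf7l2. None of the 10 cytoplasmic transducers tested passed the cutoff on the fold change, and Axin2, of the same role, had too few reads to be tested.

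**Figure D1:**
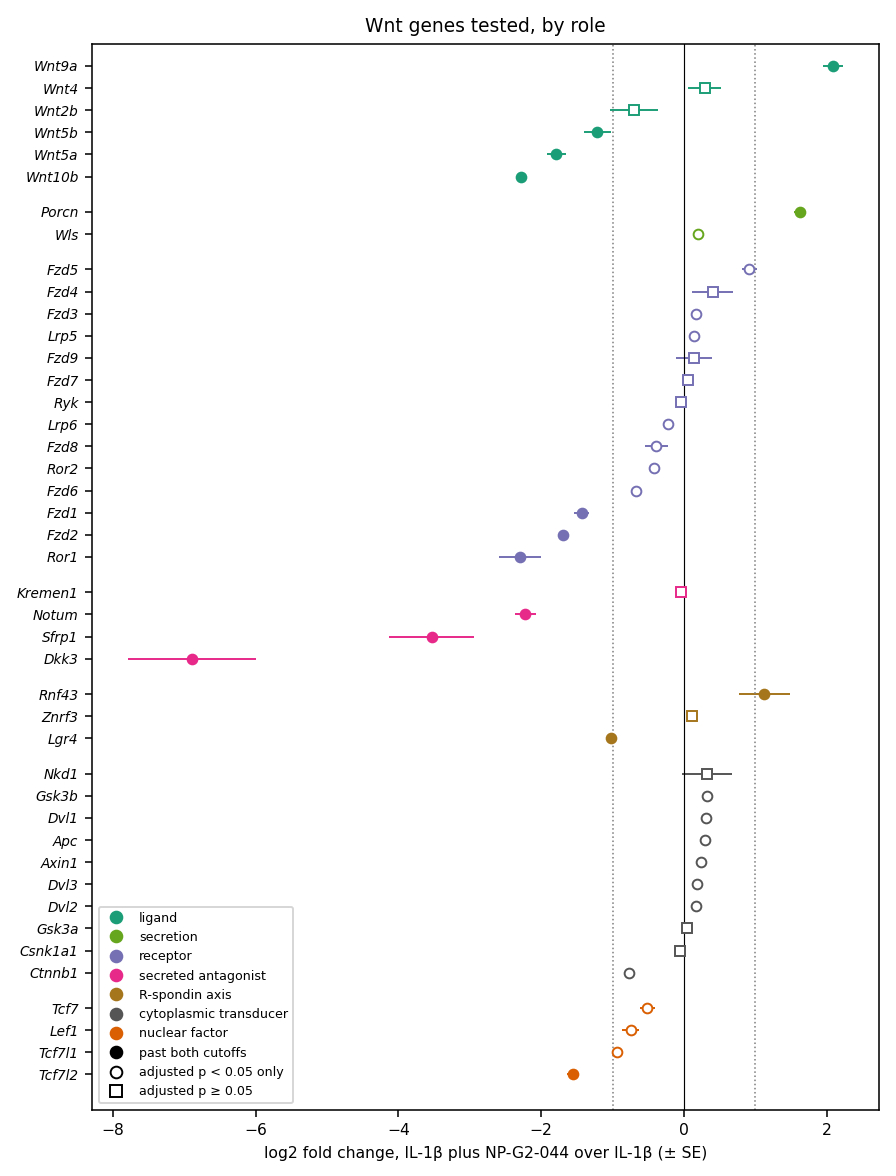
Log2 fold change of the 43 Wnt genes tested, as libraries with NP-G2-044 over those without, with bars for the standard error of the fit and genes ordered by role. Filled circles are past both cutoffs (dotted lines at a log2 fold change of 1 in size), open circles pass the adjusted p only and squares do not pass. Wnt9a (2.09) lies farthest to the right and Dkk3, which had no read with the inhibitor, farthest to the left (-6.89).

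Ligand transcripts were dominated by Wnt10b, a β-catenin-activating ligand best known for holding back adipocyte formation and favouring bone formation. Wnt10b (Entrez gene 22410, chr15:98770712-98778206) was at 73.1, 72.9 and 70.6 TPM in the 3 IL-1β libraries and at 13.2, 16.2 and 14.1 TPM in the 3 libraries with NP-G2-044. All 3 inhibitor libraries were far below all 3 IL-1β libraries. Its level fell by 2.28 on the log2 scale (SE 0.0491, adjusted p = 2.318e-40, edgeR), a 4.86-fold lower value.

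Wnt9a, a ligand involved in joint formation, moved the other way. Wnt9a (Entrez gene 216795, chr11:59306849-59333552) was at 1.00, 1.13 and 1.01 TPM with IL-1β and at 3.84, 4.69 and 4.58 TPM with the inhibitor added. The groups were well apart, and the gene rose 4.26-fold (log2 fold change 2.09, SE 0.143, adjusted p = 4.969e-19). It was the only 1 of the 6 ligands tested that passed as higher, where 40.2% of all genes tested did.

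Wnt5a and Wnt5b, the ligands best known for signaling without β-catenin, both fell from low levels. Wnt5a (Entrez gene 22418, chr14:28504543-28527448) was at 2.85, 3.18 and 2.52 TPM with IL-1β and at 0.92, 0.65 and 0.93 TPM with NP-G2-044, which gave a log2 fold change of -1.79 (SE 0.137, adjusted p = 1.634e-16). Wnt5b (Entrez gene 22419, chr6:119432531-119544824) was at 3.39, 3.13 and 2.40 TPM against 1.33, 1.33 and 1.13 TPM, with a log2 fold change of -1.22 (SE 0.187, adjusted p = 7.008e-08). Neither gene overlapped between the groups. Wnt5b no longer passed when the change was tested against a fold of 2 (adjusted p = 0.308, edgeR glmTreat), while Wnt10b, Wnt5a and Wnt9a did.

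Wnt4 and Wnt2b were near the floor of what was tested and did not pass. Wnt4 had 0.61 ± 0.0755 and 0.733 ± 0.0862 TPM (log2 fold change 0.29, adjusted p = 0.238), with overlapping groups. Wnt2b had 0.43 ± 0.102 and 0.257 ± 0.0651 TPM (log2 fold change -0.70, adjusted p = 0.0556). It passed when IL-1β library 3 or inhibitor library 2 was left out (adjusted p = 0.0382 and 0.0436).

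Summed over all 11 ligand genes, the level went from 80.2 ± 2.31 to 21.99 ± 1.95 TPM, a ratio of 3.65 between the groups. Because Wnt10b fell and Wnt9a rose, the make-up of the pool changed with its size. Wnt10b made up 90.0% ± 0.852 of ligand TPM with IL-1β and 65.95% ± 1.27 with the inhibitor, and Wnt9a 1.31% ± 0.0815 and 19.9% ± 1.14. The shares of Wnt5a (3.55% and 3.85%) and Wnt5b (3.70% and 5.77%) moved less, since both fell with the pool.

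**Figure D2:**
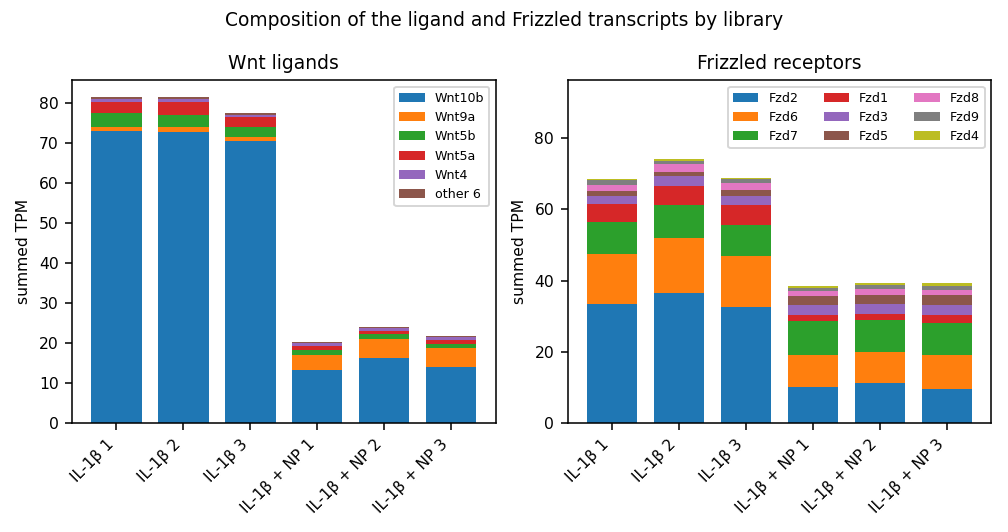
Summed TPM of the 11 Wnt ligand genes (left) and the 9 Frizzled genes (right) in each library, stacked by gene, with 3 IL-1β libraries and 3 libraries with IL-1β plus NP-G2-044 (NP). The ligand sum was 77.5 to 81.6 TPM with IL-1β and 20.2 to 24.1 TPM with the inhibitor, and the Frizzled sum 68.5 to 74.0 and 38.4 to 39.3 TPM, with Wnt10b and Fzd2 taking the largest part of each loss.

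Both genes that serve ligand secretion rose, where 40.2% of all genes tested were higher. Porcn, the acyltransferase (Entrez gene 53627, chrX:8193846-8206548), was at 9.40, 8.21 and 9.03 TPM with IL-1β and at 23.4, 27.1 and 27.1 TPM with NP-G2-044, without overlap. It rose 3.08-fold (log2 fold change 1.62, SE 0.0852, adjusted p = 8.796e-24). Wls, the carrier, was already abundant, with 107, 108 and 112 TPM against 126, 124 and 120 TPM. Its rise was small (log2 fold change 0.19, SE 0.03, adjusted p = 1.222e-07), though all 3 inhibitor libraries lay above all 3 IL-1β libraries.

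All 14 receptor genes were tested, and 7 fell, 3 rose and 4 did not pass. Over all genes tested, 39.8% were lower and 40.2% higher at the same adjusted p of 0.05. Fzd2, the most abundant Frizzled with IL-1β (Entrez gene 57265, chr11:102604431-102608058), was at 33.3, 36.6 and 32.7 TPM and dropped to 10.1, 11.1 and 9.64 TPM with the inhibitor. The groups were well apart, and the log2 fold change was -1.70 (SE 0.0533, adjusted p = 3.31e-32). Fzd1 (Entrez gene 14362, chr5:4753839-4758216) showed a similar fall from a lower level, with 5.17, 5.35 and 5.56 TPM against 1.67, 1.89 and 2.24 TPM (log2 fold change -1.43, SE 0.104, adjusted p = 4.851e-18).

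The other Frizzled genes went different ways. Fzd6, which has been linked to planar polarity, fell from 14.55 ± 0.576 to 9.09 ± 0.369 TPM (log2 fold change -0.67, adjusted p = 4.47e-14). Fzd5 rose from 1.43 ± 0.114 to 2.63 ± 0.03 TPM (log2 fold change 0.92, adjusted p = 1.54e-11), just short of the cutoff on the fold change, and 17.8% of its exon bases lie opposite another annotated transcript. Fzd7 did not pass, at 8.99 ± 0.344 and 9.12 ± 0.339 TPM (log2 fold change 0.05, SE 0.061, adjusted p = 0.419). The calls of Fzd8 (log2 fold change -0.39, adjusted p = 0.0258) and Fzd3 (0.16, adjusted p = 0.0279) were weak and were lost with DESeq2 (adjusted p = 0.154 and 0.149). Fzd8 was also lost without IL-1β library 2, IL-1β library 3 or inhibitor library 1 (adjusted p = 0.103, 0.052 and 0.13), and Fzd3 without IL-1β library 1, inhibitor library 1 or inhibitor library 3 (adjusted p = 0.212, 0.0692 and 0.0665). Fzd9, at 1.08 and 1.16 TPM, and Fzd4, at 0.40 and 0.513 TPM, did not pass.

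With IL-1β alone the Frizzled levels were ordered Fzd2, Fzd6, Fzd7, Fzd1, Fzd3, and the remaining ones under 2 TPM. With NP-G2-044 the 3 leading genes were close to each other, as Fzd2 had 10.3 ± 0.764 TPM and the ranges of Fzd6 (8.81 to 9.51 TPM) and Fzd7 (8.85 to 9.50 TPM) overlapped. The Frizzled sum was 70.45 ± 3.09 TPM with IL-1β and 38.96 ± 0.498 TPM with the inhibitor. Fzd2 made up 48.5% ± 1.04 of this sum in the first group and 26.45% ± 1.87 in the second, and Fzd7 12.8% ± 0.0756 and 23.4% ± 1.18.

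The co-receptors changed little. Lrp6 fell from 27.3 ± 1.66 to 22.85 ± 0.685 TPM (log2 fold change -0.22, adjusted p = 5.485e-08) and Lrp5 rose from 23.4 ± 0.863 to 25.3 ± 0.582 TPM (log2 fold change 0.15, adjusted p = 0.000682). Their sum was 50.7 ± 2.52 and 48.1 ± 1.08 TPM, with libraries that overlapped between the groups.

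Among the receptors that signal without β-catenin, Ryk, a pseudokinase receptor, was the most abundant receptor gene. It had 90.1, 89.7 and 91.2 TPM with IL-1β and 85.6, 88.7 and 83.6 TPM with NP-G2-044, and its log2 fold change of -0.04 did not pass (adjusted p = 0.261). Ror2, a receptor for Wnt5a with a role in cartilage and limb growth, fell from 7.42 ± 0.242 to 5.42 ± 0.247 TPM (log2 fold change -0.42, adjusted p = 4.306e-06). Ror1 (Entrez gene 26563, chr4:100095791-100444806) was rare, with 0.79, 0.50 and 0.56 TPM against 0.11, 0.08 and 0.17 TPM. These values rested on 47, 29 and 33 reads against 7, 5 and 11 reads, without overlap, and the log2 fold change was -2.30 (SE 0.299, adjusted p = 1.151e-09). Ror1 had enough reads to be tested only through its IL-1β libraries, so its adjusted p is no independent support for the fall.

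Of the 9 antagonist genes only 4 could be tested. Where 39.8% of all genes tested were lower, 3 of these 4 fell. Notum, a secreted carboxylesterase that removes the lipid from Wnt proteins and is itself induced by β-catenin in several tissues, was the most changed of those with more than a few reads. Notum (Entrez gene 77583, chr11:120653788-120661193) was at 6.83, 7.06 and 6.98 TPM with IL-1β and at 1.53, 1.33 and 1.46 TPM with NP-G2-044. The groups were tight and far apart, with a log2 fold change of -2.22 (SE 0.147, adjusted p = 1.198e-19). The antisense transcript Notumos covers 29.4% of the exon bases of Notum, and since the library kit is not stated to mark strand, reads of such pairs cannot be told apart. Kremen1, a membrane receptor for Dickkopf proteins, was at 6.68, 7.30 and 6.86 TPM against 6.52, 6.70 and 6.64 TPM, with overlapping groups and a log2 fold change of -0.04 (adjusted p = 0.63).

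Dkk3 and Sfrp1 passed both cutoffs on few reads. Both came through the filter on low counts only by their IL-1β libraries, where they were high. The filter therefore favoured a fall, and their adjusted p-values are no independent support for it. Dkk3, a divergent member of the Dickkopf family (Entrez gene 50781, chr7:112116019-112159482), had 14, 19 and 10 reads with IL-1β and 0 in each of the 3 inhibitor libraries, or 0.42, 0.59 and 0.31 TPM against 0. Against a floor of 3 reads over the inhibitor group it was 15.1-fold lower, a value that takes the IL-1β reads as exact (edgeR adjusted p = 1.611e-09). Sfrp1, a secreted Frizzled-related protein that binds Wnt ligands (Entrez gene 20377, chr8:23411383-23449632), had 10, 12 and 15 reads against 0, 2 and 1 reads, or 0.23, 0.28 and 0.34 TPM against 0, 0.04 and 0.02 TPM. No library of either gene overlapped with the other group. The ratio of the pooled Sfrp1 reads, scaled by library totals, was 12.98 with an exact 95% binomial interval of 4.11 to 65.8, which covers counting error only (edgeR adjusted p = 5.976e-07).

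The antagonist sum was 14.7 ± 0.526 TPM with IL-1β and 8.16 ± 0.0651 TPM with the inhibitor. Notum and Kremen1 carried almost equal parts of it at first (47.4% ± 1.00 and 47.3% ± 0.475), and Kremen1 carried 81.1% ± 0.883 once Notum had fallen.

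**Figure D3:**
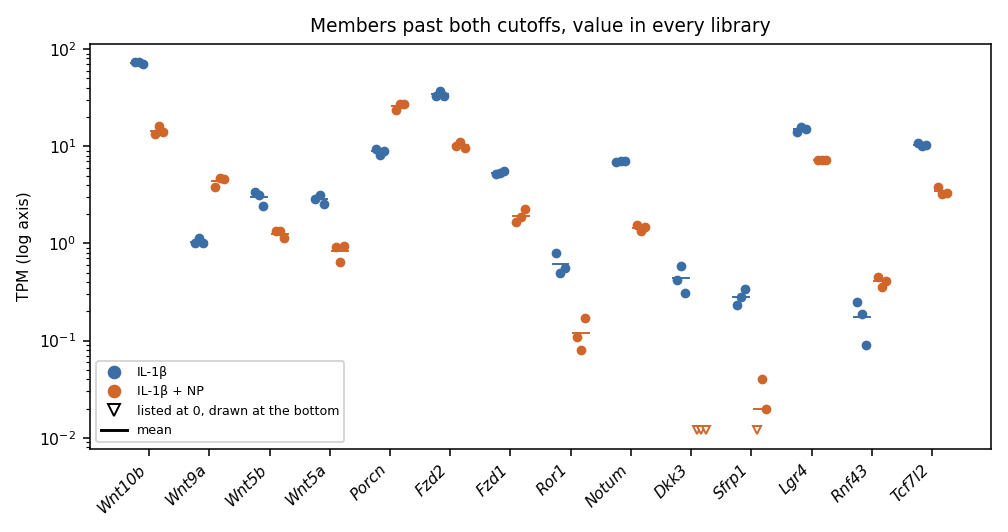
TPM on a log axis of the 14 Wnt genes past both cutoffs, 1 point per library and a bar for the mean of 3, with IL-1β in blue and IL-1β plus NP-G2-044 (NP) in orange. Open triangles mark libraries listed at 0 TPM, and in no gene do the groups overlap, with Wnt9a, Porcn and Rnf43 higher and the other 11 lower with the inhibitor.

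R-spondins bind Lgr receptors and thereby protect Frizzled from the ubiquitin ligases Rnf43 and Znrf3, which remove it from the cell surface. Lgr4, the main Lgr gene here (Entrez gene 107515, chr2:109917647-110014257), was at 14.1, 15.8 and 15.0 TPM with IL-1β and at 7.27, 7.18 and 7.15 TPM with NP-G2-044. The groups did not overlap, and the log2 fold change of -1.02 (SE 0.0557, adjusted p = 4.502e-23) sat at the cutoff, moving to -0.99 without IL-1β library 2. Tested against a fold of 2, Lgr4 did not pass (adjusted p = 1.0, edgeR glmTreat).

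Of the ligase genes only Rnf43 passed, on few reads. Rnf43 (Entrez gene 207742, chr11:87663087-87735539) had 10, 8 and 4 reads against 19, 16 and 16 reads, or 0.25, 0.19 and 0.09 TPM against 0.45, 0.36 and 0.41 TPM, without overlap. Its rise (log2 fold change 1.13, SE 0.354, adjusted p = 0.00343) was the least firm of those past both cutoffs, as the log2 fold change was 0.83 without IL-1β library 3 and the adjusted p was 0.0586 with DESeq2. Rnf43 came through the filter on low counts only by its inhibitor libraries, so its adjusted p is no independent support for the rise. Znrf3, with 5.06 ± 0.162 and 5.37 ± 0.0611 TPM, did not pass (log2 fold change 0.11, adjusted p = 0.104). Rspo3, the only R-spondin among the 57 genes, had 8, 2 and 6 reads with IL-1β and none with the inhibitor. Against a floor of 3 reads over the inhibitor group it was 5.61-fold lower, with the IL-1β reads taken as exact. Lgr5 had 11 reads against 3, a ratio of 3.86 with an interval of 1.02 to 21.5.

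β-Catenin itself was the most abundant of all 57 genes. Ctnnb1 (Entrez gene 12387, chr9:120933400-120960507) was at 357.9, 373 and 358.5 TPM with IL-1β and at 209, 209.1 and 205.9 TPM with NP-G2-044. All inhibitor libraries were far below all IL-1β libraries, and the log2 fold change was -0.77 (SE 0.027, adjusted p = 1.362e-31), or 1.71-fold lower. Exons of Ulk4 on the other strand cover 14.6% of its exon bases, but Ulk4 had 800 reads in all 6 libraries together against 62498 for Ctnnb1.

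The genes of the destruction complex and of Dishevelled moved by less, and mostly upward. Of the 10 cytoplasmic transducers tested, 6 rose, 1 (Ctnnb1) fell and 3 did not pass, where 40.2% of all genes tested were higher and 39.8% lower. The scaffolds Axin1 (45.25 ± 0.576 and 52.8 ± 1.5 TPM, log2 fold change 0.23, adjusted p = 5.394e-08) and Apc (20.85 ± 1.09 and 24.8 ± 0.845 TPM, 0.29, adjusted p = 4.468e-11) rose. The kinase gene Gsk3b rose from 33.8 ± 0.635 to 40.97 ± 1.22 TPM (log2 fold change 0.32, adjusted p = 1.012e-13). For these 3 genes every inhibitor library lay above every IL-1β library.

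Gsk3a and Csnk1a1, which encode the other kinases of the complex, did not pass. Gsk3a had 93.6 ± 1.16 and 94.5 ± 4.50 TPM (log2 fold change 0.04, adjusted p = 0.322), with 28.3% of its exon bases opposite an antisense transcript. Csnk1a1 had 75.4 ± 2.15 and 70.8 ± 0.536 TPM (log2 fold change -0.06, adjusted p = 0.0828), and passed as lower with limma on log2(TPM + 1) (adjusted p = 0.0285) and with a filter of 10 CPM in 3 libraries (adjusted p = 0.00949). All 3 Dishevelled genes rose slightly, Dvl1 by 0.31, Dvl3 by 0.18 and Dvl2 by 0.16 on the log2 scale (adjusted p = 7.001e-07, 2.048e-06 and 2.346e-05). Exons of Acadvl, a gene with 8435 reads, cover 18.3% of those of Dvl2 on the other strand.

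Axin2, Nkd1 and Nkd2, inhibitors inside the cell, had few reads. Axin2, a scaffold gene that β-catenin induces in many cell types and that is widely read as a marker of its activity, had 15, 9 and 10 reads with IL-1β and 3, 5 and 3 reads with NP-G2-044. The libraries did not overlap, and the pooled ratio was 3.25 (interval 1.61 to 7.12). Axin2 was below the filter on low counts, and when the filter was dropped its log2 fold change was -1.66 (adjusted p = 0.00187). Nkd1, a Dishevelled-binding inhibitor, had 28 reads against 37 and did not pass (log2 fold change 0.33, adjusted p = 0.395). Its relative Nkd2 had 19 reads against 38, a ratio of 1.9 in the other direction from Axin2 with an interval of 1.07 to 3.49, and without the filter did not pass (log2 fold change 0.92, adjusted p = 0.0526). It was tested and past both cutoffs when IL-1β library 1 (log2 fold change 1.11, adjusted p = 0.0277) or inhibitor library 3 (1.11, adjusted p = 0.0165) was left out, and did not pass with DESeq2 (adjusted p = 0.18).

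**Figure D4:**
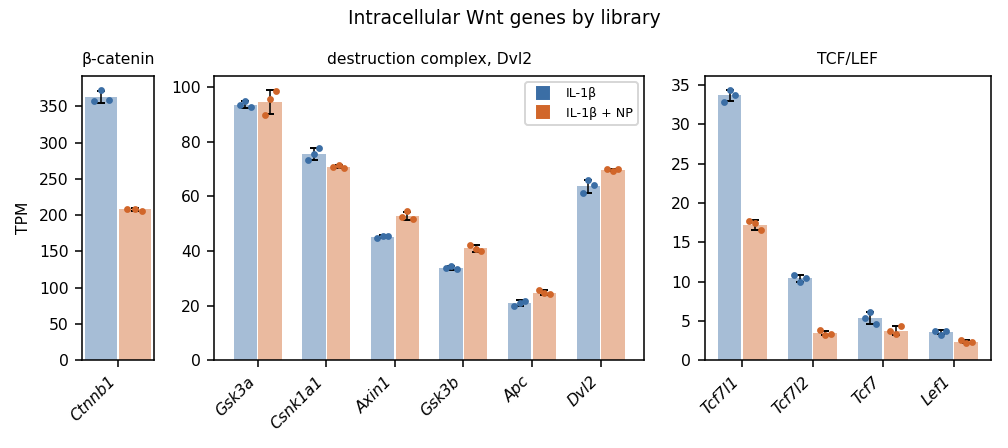
TPM of β-catenin (Ctnnb1), of destruction complex genes and Dvl2, and of the TCF/LEF genes in each library, with bars for the mean of 3 libraries, whiskers for the SD and separate linear axes from 0 in each panel (IL-1β blue, IL-1β plus NP-G2-044 orange). Ctnnb1 and the TCF/LEF genes are lower with the inhibitor, whereas Axin1, Gsk3b, Apc and Dvl2 are slightly higher and Gsk3a overlaps between the groups.

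Where 39.8% of all genes tested were lower, all 4 genes of the TCF/LEF factors fell. Tcf7l1, mostly a repressor of Wnt targets and the most abundant of them (Entrez gene 21415, chr6:72626371-72789045), was at 32.9, 34.35 and 33.7 TPM with IL-1β and at 17.7, 17.4 and 16.5 TPM with NP-G2-044 (log2 fold change -0.93, SE 0.0495, adjusted p = 1.177e-23). Tcf7l2 (Entrez gene 21416, chr19:55741797-55933659) was at 10.8, 9.94 and 10.4 TPM against 3.82, 3.26 and 3.31 TPM, with a log2 fold change of -1.56 (SE 0.0831, adjusted p = 1.619e-23). Neither overlapped between the groups, and Tcf7l2 was the only 1 of the 4 past both cutoffs.

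Tcf7 fell from 5.37 ± 0.815 to 3.78 ± 0.517 TPM (log2 fold change -0.51, adjusted p = 2.302e-05). Lef1 fell from 3.56 ± 0.267 to 2.36 ± 0.205 TPM (log2 fold change -0.75, adjusted p = 3.906e-07), and an antisense transcript covers 13.7% of its exon bases. The sum over the 4 genes was 52.98 ± 0.69 TPM with IL-1β and 26.83 ± 0.841 TPM with the inhibitor, a ratio of 1.98. Tcf7l1 made up 63.5% ± 1.16 and 64.2% ± 2.11 of this sum, and Tcf7l2 went from 19.6% ± 1.03 to 12.9% ± 0.74.

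The summed read count over the 6 libraries was under 60 for 16 of the 57 genes. Besides Dkk3 (43 reads), Sfrp1 (40), Axin2 (45), Nkd2 (57), Rspo3 (16) and Lgr5 (14), these were the ligands Wnt1 (5), Wnt10a (1), Wnt16 (1), Wnt7b (1) and Wnt6 (0) and the antagonists Dkk1 (3), Wif1 (3), Sfrp5 (2), Sfrp4 (1) and Frzb (1). Frzb, Wif1 and Dkk1 are well-known Wnt antagonists of cartilage and joints, and at this depth no difference in them was detectable. All 5 reads of Wnt1 were in IL-1β libraries, which is too few to bound a fold. Without the filter Wnt1 passed as lower (adjusted p = 0.0407, edgeR), and with DESeq2 it did not pass (adjusted p = 0.163).

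Genes further along the pathway were read from lists that do not share genes with the 57, and their shares are set beside those of all genes tested, 39.8% lower and 40.2% higher at an adjusted p of 0.05 and 10.1% lower and 6.48% higher past both cutoffs. Of 27 tested β-catenin target genes, 16 fell (59.3%) and 8 rose (29.6%). Past both cutoffs 10 fell (37.0%) and 4 rose (14.8%), and the median log2 fold change was -0.66 against 0.00 over all genes. The largest falls among those with at least 1 TPM were in Ccn5 (2.60 ± 0.53 to 0.0533 ± 0.0503 TPM, log2 fold change -5.78), Tnfrsf11b, which encodes osteoprotegerin (-2.92), and Bmp4 (68.0 ± 3.02 to 10.7 ± 1.05 TPM, -2.63). The largest rises at that level were in Vegfa (28.7 ± 1.01 to 90.1 ± 1.63 TPM, log2 fold change 1.68), Jun (1.62) and Ccn4, also known as Wisp1 (1.31). Ccn5 (42, 49 and 33 reads against 1, 1 and 0), Tnfrsf11b and Fst, all among the falls past both cutoffs, had enough reads only in the IL-1β group. Their being tested thus depended on the contrast itself, and the shares of this list are a description only. Several of these genes respond to many pathways, and the list does not read β-catenin alone.

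All 29 nuclear cofactors were tested, 21 fell (72.4%) and 7 rose (24.1%), with a median log2 fold change of -0.28. Past both cutoffs 3 fell (10.3%), which is about the share of all genes, and 0 rose. The 3 were the co-repressor gene Tle2 (log2 fold change -2.17) and the β-catenin adaptors Bcl9l (-1.24) and Bcl9 (-1.06). Of the 35 partners and turnover factors of the destruction complex, 14 rose and 14 fell (40.0% each, about the share of all genes), the median was -0.03, and only the ubiquitin ligase gene Siah2 (2.11) and Amer1 (-1.004), which encodes a membrane-associated regulator of the complex, were past both cutoffs. Among 26 tested modulators at the cell surface or in the matrix, 13 fell (50%) and 9 rose (34.6%), with a median of -0.40. Past both cutoffs 6 fell (23.1%) and 2 rose (7.69%, close to the share of all genes). The largest falls among those with a mean of at least 1 TPM were in the heparan sulfatase gene Sulf2 (111.9 ± 6.00 to 18.3 ± 0.661 TPM, log2 fold change -2.57), the Wnt-inactivating protease gene Trabd2b (-2.09) and the glypican gene Gpc4 (-1.97). The rises were in Igfbp4 (1.10 ± 0.166 to 57.6 ± 1.78 TPM, 5.73) and Gpc1 (1.37). Rspo2 and Lgr6, also among the falls past both cutoffs, had enough reads only in the IL-1β group. Their being tested depended on the contrast itself, so the shares of the modulators too are a description only.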

How the data were processed

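The labels describe 6 RNA-seq libraries of total RNA, made with the Illumina TruSeq RNA Sample Prep Kit. The authors deposited 1 table with estimated counts, TPM and FPKM per gene and library, which they made from reads with cutadapt, HISAT2 2.0 and StringTie and the mm10 build, as the submitters' processing notes name them without giving the order of steps. The annotation is not named by any source used here. The deposited expected counts are estimated reads per gene and are not normalized (10.17% to 11.06% of the values were not whole), the deposited TPM and FPKM are scaled by the authors for gene length and library, and FPKM was not used. Columns with the authors' group means were not used either.

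Counts were rounded, filtered with filterByExpr (minimum count 10), normalized with TMM (factors 0.9975 to 1.002) and compared with edgeR 4.0.16 (glmQLFit, robust, glmQLFTest) in R 4.3.3, with the 2 groups of 3 as the only factor. The Benjamini-Hochberg adjustment ran over the 11983 genes tested, and the biological coefficient of variation was 2.33%. Cutoffs were those of the study, 0.05 for the adjusted p and 1 for the size of the log2 fold change. The genes described and the further lists were chosen with earlier results of these data known, so no list was tested as a set. Values in every library are given for genes past both cutoffs, and for the most abundant and most changed gene of each role. From each further list up to 3 rises and 3 falls past both cutoffs with a mean of at least 1 TPM are named. List genes past both cutoffs that had enough reads only in the group where they were high are named as well. Pooled reads of genes with a sum under 60 were compared with exact binomial (Clopper-Pearson) 95% intervals, and a group at 0 was set to a floor of 3 reads. Intervals cover counting error only, and a fold against the floor takes the reads of the other group as exact, so it is not a lower bound. Gene positions and promoters are from RefSeq on GRCm38.p6, and exon overlaps from GENCODE vM21.

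The steps were tested on simulated counts with the totals of the 6 libraries and the mean of each gene over them. There 190 of 197 changed genes among 11914 tested were recovered (96.4%) with 8 false calls. Few genes were changed in the simulation, by 2-fold or more and not at low counts. It therefore does not cover smaller changes, genes with few reads, or data in which most genes are called. The settings varied were the scaling (size factors of DESeq2, or library size, in place of TMM), DESeq2 1.42.0, limma 3.58.1 on log2(TPM + 1) and log2(TPM + 0.1), no filter, at least 10 CPM in 3 libraries, the replicate number as a block, a test against a fold of 2, and leaving out each library.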

Additional observations from a re-analysis of the deposited data

How the results depend on the processing

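Scaling by DESeq2 size factors or by library size alone left the counts of Wnt genes called as they were (13 higher and 19 lower at an adjusted p of 0.05, 3 and 11 past both cutoffs). A filter of at least 10 CPM in 3 libraries left 27 of the 43 genes and gave 12 lower at an adjusted p of 0.05, 1 higher and 5 lower past both cutoffs, and a median log2 fold change of 0.01 (0.01176), the opposite sign of the median of -0.04, because Wnt5a, Wnt5b, Wnt9a, Notum, Ror1, Sfrp1, Dkk3, Rnf43, Lef1 and other low genes dropped out. With more low genes tested, the median was -0.14 (-0.1438) with DESeq2 over 48 genes and -0.14 (-0.137) without a filter over 56. On log2(TPM + 1), which understates changes of low genes, 6 Wnt genes were lower past both cutoffs. For the further lists, 14 were lower past both cutoffs on log2(TPM + 1) and 12 of 132 tested with the 10 CPM filter, against 26 of 171, and with that filter their median was -0.11 (-0.1109) in place of -0.15. Tested against a fold of 2, 2 Wnt genes were higher and 9 lower, without Rnf43, Wnt5b and Lgr4. Leaving out each library in turn gave 12 to 13 Wnt genes higher and 19 to 21 lower at an adjusted p of 0.05, and 2 to 4 higher and 11 to 12 lower past both cutoffs. Samples with the same replicate number did not deviate together (correlations -0.0933, -0.0236 and 0.0259), and a replicate block gave 13, 19, 3 and 11 for the same counts. Of the values of single Wnt genes under these settings, 567 kept their direction and their side of the threshold, 7 gained and 12 lost a call, and 0 changed sign. At this depth Dkk1 (3 reads), Wif1 (3) and Frzb (1) had too few reads for a difference in either direction to be seen.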

Other observations

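β-Catenin also links cadherins to the actin cytoskeleton, and the genes of that complex were read from a list of adhesion genes. Of 14 adhesion genes tested, 9 fell (64.3%) and 5 rose (35.7%) at an adjusted p of 0.05 (edgeR), where 39.8% of all genes tested were lower and 40.2% higher, and the median log2 fold change was -0.16. Only Plekha7 (7.14% of the genes, against 10.1% of all genes lower), at 0.89 ± 0.223 and 0.217 ± 0.0702 TPM, was past both cutoffs (log2 fold change -1.95, adjusted p = 2.221e-09). Plekha7 had enough reads to be tested only through its IL-1β libraries (32, 51 and 47 reads against 8, 11 and 16). The adhesion genes named here were chosen after their values were seen. Cdh2, which encodes N-cadherin, fell from 60.1 ± 0.722 to 45.6 ± 0.716 TPM (log2 fold change -0.36, adjusted p = 2.037e-15), whereas Cdh11, the mesenchymal cadherin, rose from 24.1 ± 1.196 to 41.4 ± 1.02 TPM (0.81, adjusted p = 9.167e-27). Ctnnd1, which encodes p120-catenin, fell by 0.75 on the log2 scale (adjusted p = 4.392e-28), a fall close in size to that of Ctnnb1, and Ctnna1, which encodes α-catenin, fell by 0.09 (adjusted p = 0.00378).

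Of 41 tested genes of planar cell polarity and other signaling without β-catenin, 18 fell (43.9%) and 12 rose (29.3%), with a median log2 fold change of -0.10. Past both cutoffs 5 fell (12.2%) and 1 rose (2.44%). The shares that fell were near those of all genes, 39.8% and 10.1%, and the shares that rose below them, 40.2% and 6.48%. Daam2 and Prickle1 among the falls past both cutoffs, and Celsr1, the rise, had enough reads only in the group where they were high. The falls past both cutoffs with at least 1 TPM were in Dact2, a Dishevelled-binding regulator (11.5 ± 1.15 to 3.46 ± 0.0814 TPM, log2 fold change -1.71, adjusted p = 4.339e-22), and Nfatc4, a calcium-regulated transcription factor (3.33 ± 0.40 to 1.14 ± 0.123 TPM, -1.42, adjusted p = 8.223e-13). Over all 6 further lists, 55 of 171 genes rose (32.2%, against 40.2% of all genes) and 91 fell (53.2%, against 39.8%) at an adjusted p of 0.05. Past both cutoffs 8 rose (4.68%, against 6.48%) and 26 fell (15.2%, against 10.1%). Since some of these genes were tested only through the group where they were high, these shares are a description only.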
